A study of Mus musculus with 30 samples.

Results

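Mature microRNAs (miRNAs) were measured in OFT-RV, the outflow tract dissected together with the right ventricle, of mouse embryos at embryonic day 9.5, in mutants that lose Dgcr8 in part of that tissue and in wild-type embryos. At this stage these form the arterial end of the heart tube. Of 30 arrays in the series, 6 were miRNA arrays of this tissue, with 3 wild-type and 3 mutant arrays. A probe set was taken as a mature miRNA when its identifier was a mature miRBase identifier listed in the authors' deposited table for OFT-RV, which gave 1908 mature mouse miRNAs of 3163 mouse probe sets, the other 1255 being hairpin precursors.

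Wild-type embryos were Dgcr8 f/+ and carried no Cre. Mutants were Mef2c-AHF-Cre/+; Dgcr8 f/f, so that both genotypes carried a floxed Dgcr8 allele and the mutants alone carried Cre. The Cre is driven by the anterior heart field enhancer of Mef2c, which acts in the anterior second heart field, a progenitor population behind the heart tube, and in its descendants. The endocardium, neural crest cells and blood in the dissected tissue do not all descend from that field, so the mutant samples can hold cells with intact Dgcr8. Embryos had 19 to 21 somite pairs, and each sample pooled tissue of a single genotype from at least 5 litters. In addition 8 mRNA arrays of OFT-RV (4 wild-type and 4 mutant) and 8 miRNA arrays of the anterior second heart field (aSHF; 4 and 4, same genotypes and stage) were used for comparison. Whether an mRNA array and a miRNA array came from the same pool is not stated, and nothing in the labels pairs mutant with wild-type samples.

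Most miRNAs are made from long primary transcripts. Dgcr8 binds the hairpin in the primary transcript and, with the nuclease Drosha, forms the Microprocessor, which frees the precursor hairpin. Dicer then cuts the precursor to the mature miRNA of about the length shown in the sequences that follow. Some miRNAs bypass the Microprocessor, among them mirtrons, whose precursor ends are made by splicing, and hairpins that start at the cap of their transcript. In the heart, miR-1, miR-133 and miR-208 are muscle miRNAs, miR-143 and miR-145 mark smooth muscle and early myocardium, and miR-378a lies in the gene of the metabolic coactivator Ppargc1b.

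The mature sequences of the miRNAs on which the results turn are given 5′ to 3′ from RefSeq (GRCm38.p6), with the seed (bases 2 to 8, which pair with target mRNAs) in capitals. The first set holds 3 members of the miR-378 family, shown because their sequences are close enough that probes may not tell them apart.
miR-378b: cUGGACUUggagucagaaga
miR-378c: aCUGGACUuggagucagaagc
miR-378d: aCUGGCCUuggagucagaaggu
miR-378b and miR-378c shared a run of 19 bases, starting at base 1 of the 20 bases of miR-378b and at base 2 of the 21 bases of miR-378c, so that their seeds by position differ by a shift of a single base. miR-378d shared runs of 14 bases with each of them. The next set holds the other miRNAs that passed the test and are present in the sequence table.
miR-543-3p: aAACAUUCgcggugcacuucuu
miR-134-5p: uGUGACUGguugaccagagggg
miR-434-3p: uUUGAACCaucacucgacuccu
miR-744-5p: uGCGGGGCuagggcuaacagca
None of these 4 shared a seed with another. The last set shows miRNAs of clusters and families described further on. Some are grouped by shared seeds (miR-17-5p with miR-20a-5p, miR-30a-5p with miR-30c-5p, miR-125a-5p with miR-351-5p). Others are taken to bypass the Microprocessor (miR-877-5p and miR-702-5p). miR-208a-5p is shown as a muscle miRNA, and miR-99b-5p and let-7e-5p as members of the cluster that holds miR-125a.
miR-208a-5p: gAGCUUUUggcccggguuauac
miR-17-5p: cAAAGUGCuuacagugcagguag
miR-20a-5p: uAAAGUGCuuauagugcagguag
miR-30a-5p: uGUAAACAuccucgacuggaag
miR-30c-5p: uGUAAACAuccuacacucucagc
miR-99b-5p: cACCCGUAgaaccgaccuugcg
let-7e-5p: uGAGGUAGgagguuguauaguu
miR-125a-5p: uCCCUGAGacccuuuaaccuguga
miR-351-5p: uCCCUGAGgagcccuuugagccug
miR-877-5p: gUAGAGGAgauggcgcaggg
miR-702-5p: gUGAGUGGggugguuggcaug

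All values are the authors' log2 values after robust multi-array averaging (RMA), so a difference of 1 means a 2-fold difference in array signal, and signals of different probe sets are not compared as amounts of RNA. A miRNA was called detected when its wild-type mean lay above 1.0, the 95th percentile of the 95 background probe sets, which held for 565 of 1908 mature miRNAs (29.6%). Just above this limit lay miR-7674-5p, with a wild-type mean of 1.0 and a change of 0.26, then miR-7004-3p and miR-711, with changes of -0.08 and -0.04. Just below it lay miR-6516-5p, miR-6370 and miR-219c-3p, with changes of -0.09, 0.08 and -0.33. Of the detected miRNAs, 116 had a mutant mean at or below the limit, while 109 miRNAs not detected in wild-type had a mutant mean above it. Because detection by the wild-type mean favours miRNAs that are high in wild-type, counts over detected miRNAs are given as descriptions. A total of 15 detected miRNAs had values identical to those of another miRNA, for example miR-199a-3p and miR-199b-3p, and count as separate entries.

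The third mutant array stood apart from the rest. Over detected miRNAs it correlated with the wild-type arrays at 0.901 to 0.926 and with the other mutant arrays at 0.949 to 0.954, against 0.962 to 0.984 for all other pairs, so values that rest on it are also given without it. On the mRNA arrays Dgcr8, the targeted gene, read 8.22, 8.06, 7.98 and 8.16 in wild-type and 7.63, 7.77, 7.73 and 7.65 in mutant. These groups did not overlap, and Dgcr8 was lower by -0.41 in mutant (SE 0.06, adjusted p = 0.00753, limma). Where its probes lie relative to the deleted part of the gene is not known. The 7 myocardial marker genes lay at or above the 98.4th percentile of gene levels (Actc1, cardiac actin, at 13.75 and Myl7, the atrial myosin light chain, at 13.34 in wild-type). List levels are the log2 of the mean unlogged signal, so the brightest genes of a list lead them. The level of the myocardial list was 12.94 to 12.98 in wild-type and 12.91 to 13.01 in mutant arrays. That of the erythroid list was 11.22 to 11.51 and 11.31 to 11.50. It follows mainly Hbb-bh1 and Hba-x (changes of 0.03 and 0.05), while the dimmer Gata1, Alas2 and Epb42 changed by 0.11, 0.10 and 0.29. The endothelial list lay at 9.22 to 9.28 and 9.17 to 9.30, and the neural crest mesenchyme list at 7.17 to 7.39 and 6.86 to 7.28. Of the genes in these lists, 0 passed the test. In bulk tissue, fewer cells of a type and less RNA per cell cannot be told apart.

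Loss of Dgcr8 was accompanied by lower signal of a few miRNAs and by no significant rise. miR-378b, miR-543-3p, miR-378c, miR-134-5p, miR-378a-3p, miR-434-3p and miR-744-5p were lower in mutant, by 4.77-fold to 1.64-fold. They were 7 of the 1908 mature miRNAs tested (0.367%) at an adjusted p under 0.05 (limma, Benjamini-Hochberg over all 1908), and 0 were higher (0%). At an unadjusted p under 0.05, 107 were lower and 75 higher. The 3 mutant arrays lay wholly below the 3 wild-type arrays for 135 miRNAs (7.08%) and wholly above them for 112 (5.87%). All 7 were detected, and 3 each belong to the miR-378 family and to the imprinted Dlk1-Dio3 locus on chromosome 12. The calls depended on single arrays. miR-543-3p alone kept its call whichever array was left out. miR-378b kept it in 3 of the 6 omissions, miR-378c, miR-134-5p and miR-378a-3p in 2, and miR-434-3p and miR-744-5p in 0. Leaving out any wild-type array left 1 call, and leaving out the first, the second or the third mutant array gave 6, 3 and 9. The authors' deposited table lists 9 mature miRNAs under an adjusted p of 0.05, these 7 with miR-667-3p (0.0463) and miR-92a-1-5p (0.0485). The fit used here called the same 9 when p was adjusted over mature and precursor probe sets together.

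**Figure D1:**
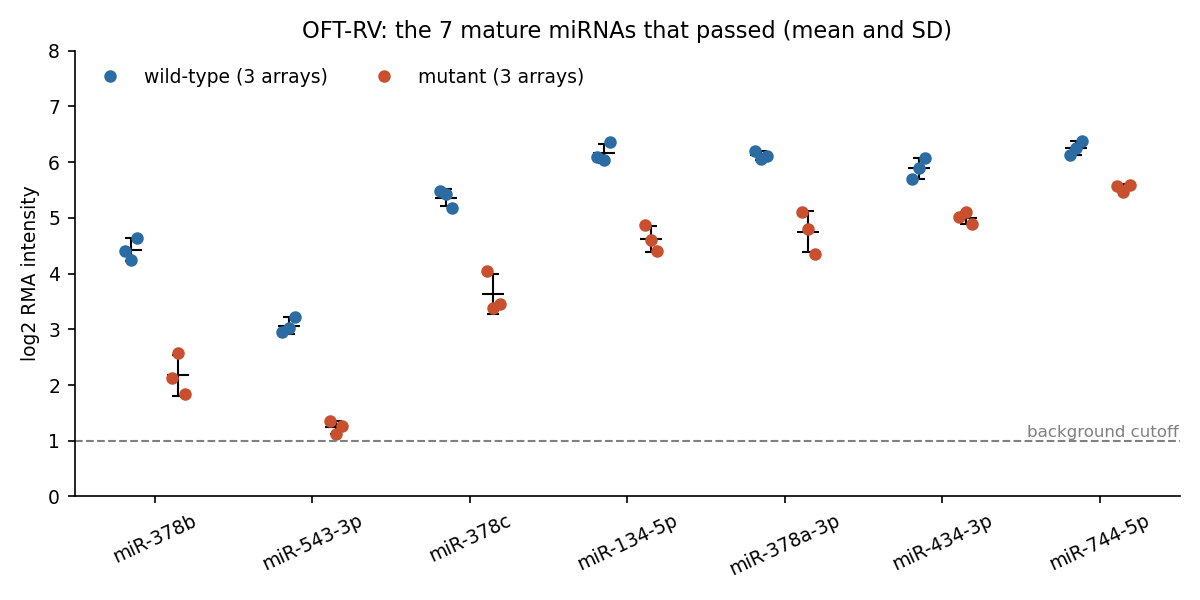
Log2 RMA signal of the 7 miRNAs that passed the test, with 1 point for each of the 3 wild-type and 3 mutant arrays, the group mean and its SD, and a dashed line at the detection limit of 1.0. For each of the 7, every mutant array lies below every wild-type array, and the miR-378b and miR-543-3p means are the farthest apart.

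Over the 565 detected miRNAs the change was negative for 359 and positive for 206, with a median of -0.095 (347 negative and -0.086 without the third mutant array). Chosen by the mean of all 6 arrays, which favours neither genotype, 541 miRNAs divided into 292 negative and 249 positive, with a median of -0.025. Over all 1908 the division was 984 to 924, with a median of -0.0044. Among the 141 miRNAs of highest wild-type signal 84 were lower, with a median of -0.33, and this value rested on the third mutant array, since without it the median was -0.088 with 75 lower. The mutant arrays lay wholly below the wild-type arrays for 99 of the 565 detected miRNAs and wholly above them for 44. Among the 141 these counts were 48 and 21. The share of detected miRNAs with a negative change was 63.5% on the deposited scale, 66.7% when arrays were set equal on the background probe sets and 71.9% when set equal on 141 small RNAs outside miRBase. These scalings moved the median by -0.027 and -0.076.

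**Figure D2:**
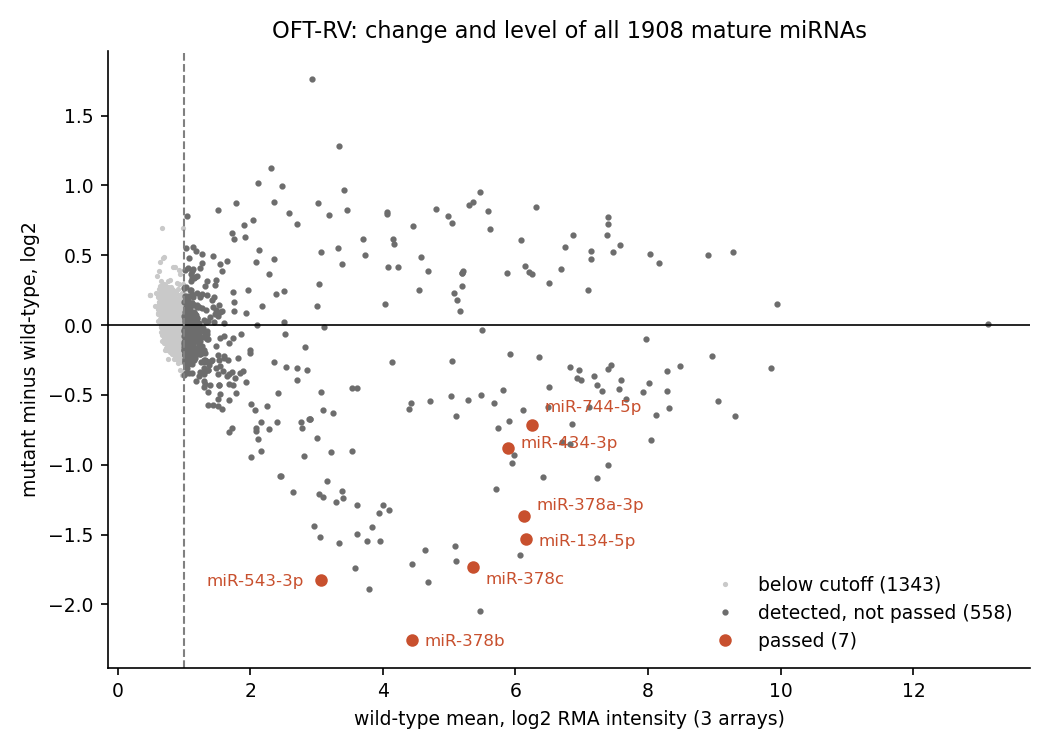
Change in log2 signal (mutant minus wild-type) against mean wild-type log2 signal for 1908 mature miRNAs. The 7 that passed the test are marked, with 558 other detected miRNAs and 1343 below the detection limit, and all 7 lie below a change of 0. The dashed line is the detection limit.

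The brightest miRNA, miR-709, read 13.07, 13.12 and 13.18 in wild-type and 13.13, 13.15 and 13.11 in mutant. Its groups overlapped and its change was 0.01 (SE 0.08). After it came miR-6538, miR-92a-3p, miR-145a-5p, miR-5126, miR-351-5p, miR-17-5p, miR-3960, miR-26a-5p and miR-541-5p, with wild-type means from 9.95 to 8.32. None of these 10 passed the test. miR-26a-5p, which is present in many tissues, read 8.65, 8.47 and 8.32 in wild-type against 8.54, 8.31 and 7.71 in mutant, so the groups overlapped, and its change was -0.29, or -0.054 without the third mutant array.

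All 5 measured members of the miR-378 family were detected and lay lower in every mutant array than in any wild-type array, and 3 passed the test. Falls without overlap were seen for 99 of all 565 detected miRNAs. miR-378a is encoded in an intron of Ppargc1b and is known for effects on mitochondrial energy use. The miR-378b probe set read 4.40, 4.25 and 4.64 in wild-type and 2.12, 2.57 and 1.85 in mutant. The groups were separated by more than the spread within either, a fall of 2.25 on the log2 scale (SE 0.20, 4.77-fold, adjusted p = 0.00787, limma), which was -2.09 without the third mutant array. miR-378c read 5.48, 5.42 and 5.19 in wild-type and 4.05, 3.39 and 3.45 in mutant, again without overlap. Its change was -1.73 (SE 0.19, 3.32-fold, adjusted p = 0.0163, limma).

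miR-378a-3p, from the hairpin in Ppargc1b, read 6.21, 6.05 and 6.11 in wild-type and 5.10, 4.81 and 4.36 in mutant. It was lower by -1.37 (SE 0.18, 2.58-fold, adjusted p = 0.0499, limma), or -1.17 without the third mutant array. miR-378d read 3.39, 3.64 and 3.71 in wild-type and 1.19, 3.01 and 1.33 in mutant, and its second mutant array stayed close to wild-type. Its change of -1.74 (SE 0.45) did not pass the test (adjusted p = 0.214, limma), and neither did that of the other strand, miR-378a-5p, at -0.48. In GRCm38.p6, miR-378b lies at chr11:88352839-88352858 on the plus strand within the RefSeq span of Msi2, miR-378c at chr14:46954905-46954925 on the minus strand within that of Samd4, and miR-378d at chr10:126710355-126710376 on the minus strand outside any gene span. Exons and introns, and the strand of the host, were not examined. The median change of the family was -1.73 (-1.48 without the third mutant array), against -0.095 over all detected miRNAs. Given the runs of bases that its members share, these probe sets may read each other's RNA and are not independent measurements.

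The Dlk1-Dio3 locus, an imprinted region whose maternal allele expresses a large set of miRNAs, held 101 measured miRNAs, of which 78 were lower and 3 passed the test. It had 57 detected members, and 53 of these were lower, with a median of -0.49 (53 lower and -0.48 without the third mutant array). For 26 of them the mutant arrays lay wholly below the wild-type arrays, against 99 of all 565 detected miRNAs. Chosen by the mean of all 6 arrays, 48 of 52 were lower. These counts follow a list of miRNA names. By position, detected miRNAs on the plus strand of chromosome 12 formed a run between 109709065 and 109747949 (38 of 42 lower, median -0.52). Another run lay between 109585815 and 109595028 (9 of 11 lower). The runs also hold miRNAs outside the list. One is miR-3072-5p, named after its values were seen, with a change of 0.62 (0.24 without the third mutant array). Many miRNAs of the locus are neighbours that may come from shared transcripts, so they do not count as independent of each other.

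miR-543-3p (chr12:109717304-109717325, plus strand) had the smallest adjusted p of all miRNAs. It read 2.95, 3.02 and 3.23 in wild-type and 1.35, 1.12 and 1.27 in mutant, where it lay just above the detection limit. Its change was -1.82 (SE 0.11, 3.54-fold, adjusted p = 0.00140, limma), and -1.83 without the third mutant array. miR-134-5p (chr12:109734145-109734166, plus strand), known in neurons as a regulator of dendritic spine size, read 6.09, 6.04 and 6.36 in wild-type and 4.87, 4.60 and 4.41 in mutant. The groups did not overlap, and the change was -1.53 (SE 0.15, 2.90-fold, adjusted p = 0.00974, limma). miR-434-3p (chr12:109594565-109594586, plus strand, within the RefSeq span of Rtl1) read 5.69, 5.89 and 6.08 in wild-type and 5.02, 5.10 and 4.89 in mutant. Its change was smaller, -0.88 (SE 0.12, 1.84-fold, adjusted p = 0.0499, limma).

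Members of the locus that missed the test included miR-667-3p, which read 3.72, 3.92 and 4.24 in wild-type and 2.87, 2.30 and 2.07 in mutant. Its groups did not overlap and its change was -1.54 (SE 0.23, adjusted p = 0.0551, limma). The following 4 were named after their values were seen. miR-329-3p had the most negative change in the locus, -2.05 (SE 0.51, adjusted p = 0.189), but its mutant arrays read 4.05, 4.11 and 2.11, and without the last of these the change was -1.39. miR-485-3p had a change of -1.89 (SE 0.37, adjusted p = 0.13), miR-379-5p, the first miRNA of the larger run, of -0.84 (SE 0.13, adjusted p = 0.0727) and miR-409-3p of -1.10 (SE 0.26, adjusted p = 0.189), all by limma and all without overlap of the groups.

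The locus did not move as a block. miR-541-5p, its member of highest signal, read 8.20, 8.21 and 8.54 in wild-type and 7.67, 7.75 and 7.75 in mutant, a change of -0.60 (SE 0.12, adjusted p = 0.125, limma) without overlap. miR-127-3p, which is transcribed opposite Rtl1, read 7.89, 7.82 and 8.19 against 7.73, 7.82 and 8.04. Its groups overlapped, and its change was -0.10 (SE 0.13). Also near 0 were miR-376a-3p (-0.0081) and miR-323-3p (0.058), both of wild-type means close to the detection limit, while miR-494-3p, miR-668-3p and miR-370-3p had changes of -1.17, -1.19 and -1.33 (-0.65, -0.95 and -0.94 without the third mutant array) and no overlap of the groups. These 5 were also chosen after their values were seen.

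miR-744-5p, which lies within the RefSeq span of the kinase gene Map2k4 (chr11:65734799-65734820, minus strand), was the remaining miRNA that passed the test. It read 6.12, 6.25 and 6.39 in wild-type and 5.58, 5.47 and 5.58 in mutant. The groups did not overlap, and the change was -0.71 (SE 0.10, 1.64-fold, adjusted p = 0.0499, limma), with -0.73 without the third mutant array.

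None of the muscle miRNAs passed the test, although all 8 detected members of the list of 16 were lower (median -0.42). miR-208a-5p, whose gene lies within Myh6, the alpha myosin heavy chain gene, read 4.03, 4.60 and 4.68 in wild-type and 3.30, 2.96 and 1.92 in mutant. The groups did not overlap, but the mutant arrays spread widely, and the change of -1.71 (SE 0.36) gave an adjusted p of 0.138 (limma), or -1.31 without the third mutant array. miR-1a-3p, which promotes cardiomyocyte differentiation, read 3.20, 4.27 and 2.41 in wild-type and 1.92, 2.88 and 1.28 in mutant. Its replicates differed by more than 1 within both genotypes, and the groups overlapped (-1.27, SE 0.54, adjusted p = 0.526, limma).

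The miR-133 members, which restrain smooth muscle genes and proliferation in the heart, had smaller changes. miR-133b-3p read 6.14, 6.31 and 5.91 in wild-type and 5.80, 5.82 and 4.92 in mutant, without overlap (-0.61, SE 0.25, or -0.31 without the third mutant array). miR-133a-3p read 7.35, 7.42 and 7.12 against 7.19, 6.87 and 6.42, and the groups overlapped (-0.47, SE 0.20, or -0.27 without that array). Neither passed the test (adjusted p of 0.513 and 0.521, limma). miR-499-5p, from a myosin gene, lay at the limit with 1.02 in wild-type and 0.76 in mutant.

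miR-145a-5p and miR-143-3p come from the smooth muscle transcript Carmn. miR-145a-5p read 9.36, 9.28 and 9.28 in wild-type and 8.75, 8.84 and 8.38 in mutant. Its groups did not overlap, and the change was -0.65 (SE 0.13, adjusted p = 0.133, limma). miR-143-3p read 7.72, 7.60 and 7.44 against 7.55, 7.67 and 6.36, so that its change of -0.40 (SE 0.33) rested on the third mutant array and was 0.02 without it. No call was made for either.

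miRNAs of other cell types that the dissection could hold did not pass the test either. miR-126a-3p of endothelium read 7.34, 7.07 and 6.88 in wild-type and 7.70, 7.25 and 7.09 in mutant (0.25, SE 0.19, or 0.38 without the third mutant array). miR-486-5p of erythroid cells read 4.75, 5.49 and 5.33 against 5.66, 5.35 and 5.69 (0.37, SE 0.20), while miR-451a, which is made without Dicer, lay below the limit at 0.98. In the epithelial list 4 of 14 members were detected (median -0.070, or 0.0074 without that array), among them miR-205-5p (1.29, 1.22 and 1.54 against 1.92, 1.67 and 1.41) and miR-200c-3p, whose first wild-type array at 3.76 lay far above the others at 1.85 and 1.64. In each of these the groups overlapped. The mesenchymal miR-199 and miR-214 had 4 detected members, of which miR-199a-3p and miR-199b-3p hold identical values. All 4 were lower, with a median of -0.53 (3 lower and -0.19 without the third mutant array). Their replicates spread widely: miR-199a-3p read 2.34, 2.61 and 3.76 against 3.15, 2.13 and 1.40 (-0.67, SE 0.51, or -0.26 without that array). In the neural list 2 of 20 members were detected (median -0.070, or -0.019 without that array), and miR-124-3p lay at 0.91, below the limit.

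Several families of broadly expressed miRNAs had lower medians in mutant without a member that passed the test. Of the miR-30 family, abundant in heart, 7 of 8 detected members were lower (median -0.68, or -0.46 without the third mutant array). In 5 of them the groups did not overlap, against 99 lower without overlap among all 565 detected miRNAs. miR-30b-5p read 3.62, 3.23 and 2.30 in wild-type and 2.18, 1.53 and 0.91 in mutant (-1.51, SE 0.41, adjusted p = 0.231, limma). miR-30d-5p, its neighbour on the minus strand of chromosome 15 between 68337431 and 68341278, read 3.01, 3.55 and 2.55 against 2.24, 2.32 and 0.94 (-1.21, SE 0.41, adjusted p = 0.378). Their groups did not overlap, although in both the third mutant array was the lowest. Without that array their changes were -1.20 and -0.76. Of the other 5p members, miR-30a-5p had a change of -0.67, miR-30c-5p of -0.85 and miR-30e-5p of -0.35 (-0.48, -0.43 and -0.21 without it).

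The miR-23, miR-27 and miR-24 clusters, known in endothelium and muscle, had 7 detected members of 11. All 7 were lower, with a median of -0.53 (-0.36 without the third mutant array), and 6 had no overlap (99 of all 565 detected). miR-23b-3p read 7.68, 7.54 and 7.78 in wild-type and 7.21, 7.33 and 6.86 in mutant (-0.53, SE 0.14, adjusted p = 0.217, limma). miR-24-3p read 7.67, 7.40 and 7.61 against 7.20, 7.19 and 6.92 (-0.46, SE 0.12, adjusted p = 0.216). miR-27b-3p, named after its values were seen, had a change of -1.50 with mutant arrays as far apart as 3.22 and 1.16.

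The cluster of miR-99b, let-7e and miR-125a lies on chromosome 17 (17830194 to 17830876, plus strand, within the RefSeq span of Spaca6). It showed 4 of 5 detected members lower without overlap (99 of all 565 detected), with a median of -0.82. miR-99b-5p read 7.14, 7.30 and 7.74 in wild-type and 6.51, 6.55 and 6.11 in mutant (-1.0, SE 0.19, adjusted p = 0.113, limma). miR-125a-5p read 7.99, 7.93 and 8.22 against 7.05, 7.59 and 7.02 (-0.82, SE 0.17, adjusted p = 0.138). let-7e-5p had a change of -1.09 (SE 0.41), or -0.60 without the third mutant array. The let-7 and miR-98 family, whose members promote differentiation, had 6 of 7 detected members lower, let-7e-5p among them, with a median of -0.48 (4 lower and -0.21 without the third mutant array). Over all 21 measured members, most of them below the limit, 8 were lower and 13 higher. let-7a-5p, which shares a run of 13 bases with let-7e-5p, read 2.60, 3.43 and 3.74 against 1.52, 3.67 and 2.68 with overlapping groups. Probes of let-7 members may read each other's RNA.

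The cluster of miR-17 to miR-92a, which drives proliferation and is required in heart progenitors, had 9 detected members and none past the test. These 9 were all lower, with a median of -0.33, but 6 were lower without the third mutant array, with a median of -0.20. miR-17-5p read 9.17, 8.88 and 8.83 in wild-type and 9.21, 8.95 and 8.05 in mutant, and its change of -0.22 (SE 0.29) became 0.12 without that array. miR-92a-3p read 9.78, 9.87 and 9.91 against 9.63, 9.68 and 9.32, without overlap (-0.31, SE 0.12, adjusted p = 0.47, limma, and -0.20 without that array). miR-17-3p, the other strand of miR-17-5p, had a change of -0.91 (SE 0.48), or -0.28 without it. The less bright strand miR-92a-1-5p read 1.81, 1.54 and 1.84 against 1.05, 1.01 and 0.92, at about the detection limit in mutant (-0.74, SE 0.11, adjusted p = 0.0551).

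The paralogs of that cluster had 10 detected members, all lower, with a median of -0.46 that was -0.17 without the third mutant array. The 6 detected miRNAs with the seed of miR-17-5p and miR-20a-5p had changes of -0.58 to -0.22. Without the third mutant array miR-17-5p, miR-20a-5p, miR-20b-5p and miR-106a-5p had positive changes, of 0.12, 0.03, 0.31 and 0.09. miR-106b-5p and miR-93-5p stayed negative, at -0.12 and -0.07. Of the cluster on the X chromosome that holds miR-322, miR-351 and miR-503, 6 of 6 detected members were lower (median -0.54, or -0.24 without the third mutant array). Its miR-351-5p read 9.11, 9.02 and 9.02 against 8.48, 8.64 and 8.39. These groups did not overlap, and the change of -0.55 (SE 0.10) had an adjusted p of 0.107 (limma). miR-503-5p and miR-322-5p, which slow the cell cycle, had changes of -0.56 and -0.33 (-0.39 and -0.17 without that array).

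In 3 further families all or most detected members were lower. The miR-181 family had 5 of 5 lower (median -0.47, but -0.03 with 3 lower without the third mutant array). miR-181d-5p read 3.22, 3.11 and 3.16 in wild-type and 2.32, 2.28 and 1.53 in mutant (-1.12, SE 0.21, adjusted p = 0.113, limma) without overlap. The miR-130 and miR-301 family had 5 of 5 lower (median -0.42, or -0.20 without that array), with miR-301a-3p at 2.24, 2.07 and 1.95 against 1.46, 1.69 and 0.83. The miR-15 and miR-16 family had 7 of 8 lower (median -0.31, or -0.21 without it), with miR-15b-5p at 6.95, 7.05 and 6.94 against 6.45, 6.67 and 6.64 (-0.39, SE 0.10, adjusted p = 0.189), also without overlap.

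The clusters of pluripotent and early embryonic cells had medians near 0. Of the miR-302 and miR-367 cluster 3 of 10 members were detected and all 3 had positive changes (median 0.13, or 0.47 with 1 lower without the third mutant array). Its miR-302d-3p read 4.51, 4.39 and 3.33 in wild-type and 5.42, 4.74 and 3.33 in mutant (0.42, SE 0.55), so that arrays of each genotype spread more than the groups differed. The miR-290 cluster had 5 lower and 4 higher (median -0.027, but 3 lower and 0.25 without the third mutant array), with miR-292-3p at 4.85, 4.32 and 4.86 against 5.01, 5.51 and 4.67 (0.39, SE 0.24). None of these passed the test.

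The miRNAs listed as independent of the Microprocessor lay higher in mutant, with no member past the test. Of 15 measured, 14 had positive changes (median 0.39), and all 9 detected ones did (median 0.44, or 0.51 without the third mutant array), against 206 of 565 detected miRNAs. Chosen by the mean of all 6 arrays, 10 of 10 were higher. Some members come from the same hairpin, as for miR-3102 and miR-702, so they do not count as independent of each other. miR-877-5p, a mirtron within Abcf1, read 1.71, 2.48 and 2.74 in wild-type and 3.08, 3.30 and 3.92 in mutant. The groups did not overlap, and the change was 1.12 (SE 0.31, 2.18-fold, adjusted p = 0.241, limma). miR-3102-3p, a tailed mirtron, read 5.05, 5.01 and 5.05 against 5.33, 5.77 and 6.21 (0.73, SE 0.21, adjusted p = 0.26), and miR-702-5p 1.17, 1.04 and 0.89 against 1.78, 1.52 and 1.46 (0.55, SE 0.12, adjusted p = 0.167), both without overlap. miR-320-3p, which is made from a hairpin at the cap of its transcript, read 6.46, 6.64 and 6.96 against 7.08, 7.24 and 6.94, with overlap (0.40, SE 0.15).

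Positive changes of similar size were seen in miRNAs outside that list, named here after their values were seen. miR-3473a read 2.24, 3.08 and 3.49 in wild-type and 4.61, 4.37 and 5.11 in mutant (1.76, SE 0.33, adjusted p = 0.113, limma). It was the most positive change among detected miRNAs. miR-1892 read 2.97, 2.91 and 4.13 against 4.38, 4.24 and 5.23 (1.28, SE 0.39), and miR-6240 read 5.11, 5.38 and 5.57 against 6.58, 5.88 and 6.24 (0.88, SE 0.20). In all of these the groups did not overlap. The bright miR-3960 (8.71, 8.97 and 9.04 against 9.37, 9.34 and 9.51, a change of 0.50) and miR-5126 (9.07, 9.45 and 9.31 against 9.65, 9.66 and 10.09, a change of 0.52) showed the same order. Beside these, 106 of the 141 small RNAs outside miRBase above the limit also had positive changes. Whether a shift in array scale had a part in these values was not tested.

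**Figure D3:**
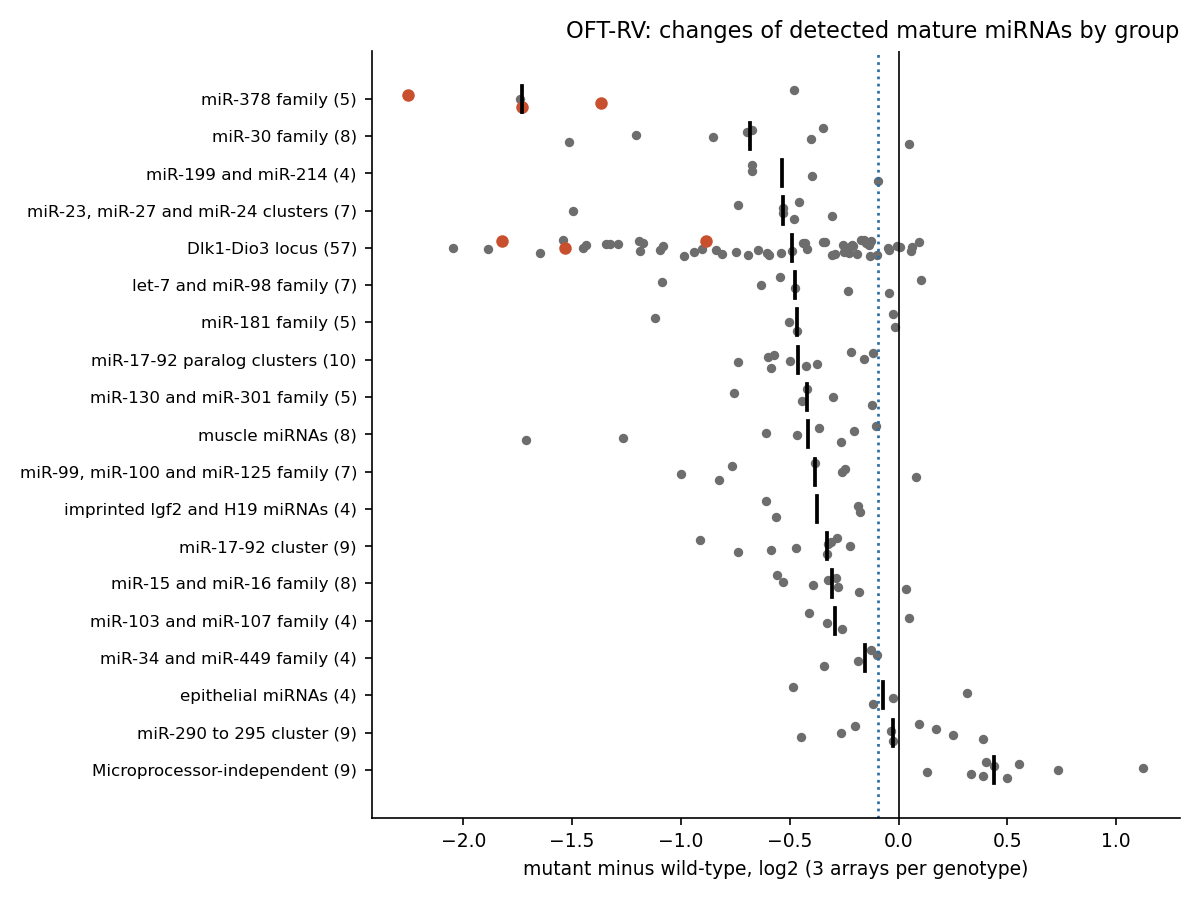
Change in log2 signal of each detected member of the lists with at least 4 detected members. Grey points are miRNAs, red points passed the test, black bars are list medians and the dotted line is the median of all detected miRNAs (-0.095). The miR-378 family has the lowest median, and the Microprocessor-independent miRNAs are the list whose members all lie above 0.

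The change varied with the base content of the mature sequence. Of 463 detected miRNAs with a RefSeq sequence, 105 of the 129 lowest in G and C were lower in mutant, 89 of the next 116, 68 of the next 118 and 37 of the 100 highest. The medians of these groups were -0.26, -0.20, -0.04 and 0.14 (-0.15, -0.19, -0.03 and 0.08 without the third mutant array). Across miRNAs, Spearman's rho of GC content with change was 0.417, and 0.241, 0.316 and 0.411 for the first, the second and the third mutant array set against the wild-type mean. In aSHF, measured on other arrays, rho was 0.208 over the same miRNAs, with no detection limit applied in aSHF. These correlations run over miRNAs of the same libraries, which share probe chemistry, clusters and families and are not independent, so no p is given. miR-5126 belongs to the GC-rich miRNAs (100% G and C), and miR-877-5p, of the Microprocessor-independent list, holds 65.0%. No RefSeq sequence was found for miR-3960, so it is not among the 463. The part of base content in these changes was not tested. By arm, 121 of 161 detected 3p miRNAs were lower, 156 of 233 of the 5p arm, and 22 of 69 with no arm in their name (medians -0.21, -0.11 and 0.12).

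**Figure D4:**
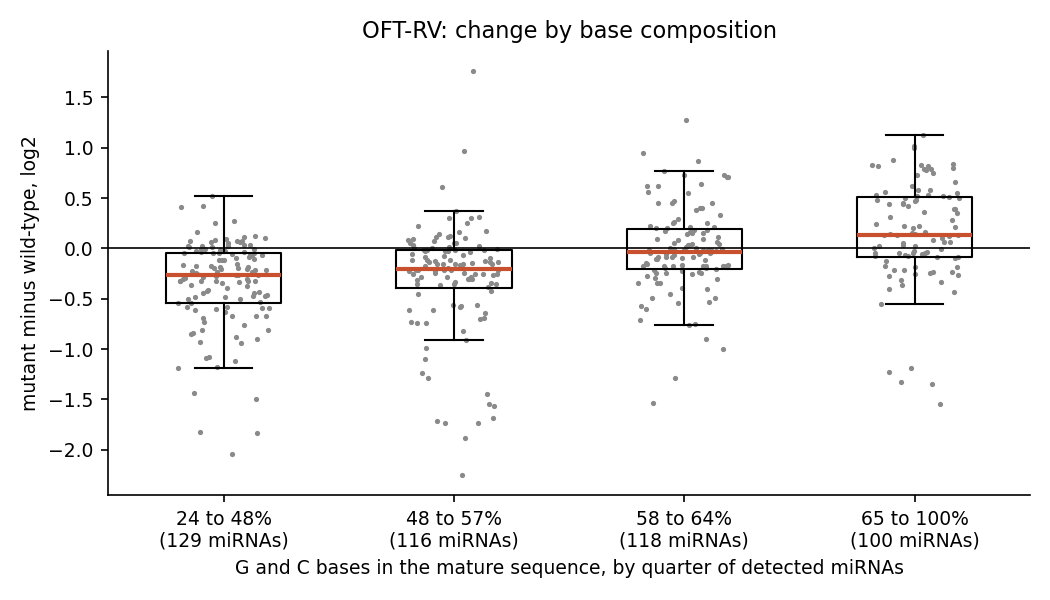
Box plots of the change in log2 signal of detected miRNAs in 4 groups of rising GC content of the mature sequence (129, 116, 118 and 100 miRNAs). Boxes span the middle quartiles with the median line, and whiskers reach the last value within 1.5 box lengths. The medians go from -0.26 to 0.14.

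The change in OFT-RV was compared with that in aSHF, where the same Cre acts in the progenitors of this tissue. In aSHF 0 of the 1908 mature miRNAs passed the test by limma (smallest adjusted p 0.170, 114 at an unadjusted p under 0.05). The test of the difference between both changes found 3 miRNAs more negative in OFT-RV (0.157%) and 0 more positive (0%), with 115 at an unadjusted p under 0.05. The count of more negative miRNAs was 1 when any single OFT-RV wild-type array was left out or without the first aSHF wild-type array, and 6, with 2 more positive, without the second OFT-RV mutant array. Each tissue was normalized on its own by the authors, and the aSHF arrays have a higher background limit, 2.74.

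miR-378b differed by -2.24 (SE 0.26, adjusted p = 0.00126, limma), but in aSHF it lay between 0.68 and 1.34 on all 8 arrays, far below the limit there, so that a change in aSHF could not have been seen. miR-543-3p differed by -1.73 (SE 0.27, adjusted p = 0.0200). In aSHF it was above the limit, at 4.62, 4.88, 4.60 and 5.03 in wild-type and 4.34, 5.07, 5.06 and 4.30 in mutant, with overlapping groups and a change of -0.09. miR-134-5p differed by -1.19 (SE 0.20, adjusted p = 0.0286), with 7.56, 7.36, 7.58 and 7.33 in wild-type and 7.03, 6.84, 7.38 and 7.21 in mutant aSHF, a change of -0.34. Of the 57 Dlk1-Dio3 members detected in OFT-RV, 49 had a negative change in aSHF (median -0.20), against 311 of the 565 (median -0.039). The aSHF limit was not applied to these counts, so they can hold miRNAs whose change could not have been seen there.

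The hairpin precursors on the same arrays showed no change past the test: 0 of 1255 (0%, limma), with 35 lower and 41 higher at an unadjusted p under 0.05 and a smallest adjusted p of 0.164. Of 139 precursor probe sets above the detection limit, 97 were lower and 42 higher (median -0.070). A mature product was also detected for 97 of the 139, a set that includes lower and higher precursors. Among these 97, 70 precursors and 62 mature products were lower, and in 51 both were lower. The mir-181a-2 hairpin went from 4.84 to 4.25 (-0.58, SE 0.14, adjusted p = 0.221) and mir-320 from 6.16 to 6.58 (0.43, SE 0.10, adjusted p = 0.188).

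On the mRNA arrays, whose probes for miRNA genes read the primary transcripts, many miRNA genes rose in mutant. Of 20842 genes 90 were higher (0.432%) and 3 lower (0.0144%) by limma, and 75 of the 90 were miRNA genes, out of 321 measured (37 when dim probe sets were left out). For 196 of these genes a detected mature miRNA could be set beside the gene. Of the 72 genes that rose, the brightest mature product was lower for 67 (median change of the gene 1.19 and of the mature miRNA -0.47). Of the 124 that did not pass, it was lower for 100 (median -0.28). Spearman's rho between both changes was -0.317 across the 196 genes, which share clusters and are not independent. Genes in a cluster may share a primary transcript, and whether the miRNA and mRNA arrays share pools is not stated.

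The primary transcript of miR-30d showed the largest rise among these genes. Mir30d read 5.86, 5.84, 5.87 and 6.14 in wild-type and 11.03, 11.06, 10.69 and 11.21 in mutant, a rise of 5.07 (SE 0.10, adjusted p = 7.38e-11, limma), while the change of its mature miR-30d-5p was -1.21. Mir30b rose by 3.38 and Mir30a by 2.79. In muscle, Mir133a-2 rose by 3.71, from 4.78, 4.44, 4.81 and 4.81 to 8.17, 8.20, 8.39 and 8.92, and Mir1a-2 by 2.83. In smooth muscle, Mir145a rose by 1.67 and Mir143 by 1.51. In the proliferative clusters Mir17 rose by 3.18, Mir19a by 4.49 and Mir351 by 2.81, beside mature changes of -0.22, -0.33 and -0.55 for miR-17-5p, miR-19a-3p and miR-351-5p.

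Of the 7 miRNAs that passed the test, 4 could be set beside their gene on the mRNA arrays, and 2 of these genes rose, each by less than 1 on the log2 scale. Mir543 read 4.05, 4.53, 4.38 and 4.62 in wild-type and 5.09, 5.01, 5.24 and 5.16 in mutant (0.73, SE 0.10), and Mir134 read 8.57, 8.86, 8.43 and 8.47 against 9.21, 9.03, 9.17 and 9.16 (0.56, SE 0.09). In neither did the groups overlap, and both genes rose past the test (adjusted p of 0.00583 and 0.0105, limma). Mir434 (4.11, 4.13, 4.19 and 4.22 against 4.53, 4.31, 4.23 and 4.50, a change of 0.23) and Mir378a (5.88, 6.15, 6.21 and 6.04 against 6.04, 6.19, 6.39 and 6.18, a change of 0.13) did not pass, with adjusted p of 0.427 and 0.958. Genes of the chromosome 17 cluster were also near 0, at -0.09 for Mir99b, 0.06 for Mir125a and 0.03 for Mirlet7e, as was Mir208a at 0.12.

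**Figure D5:**
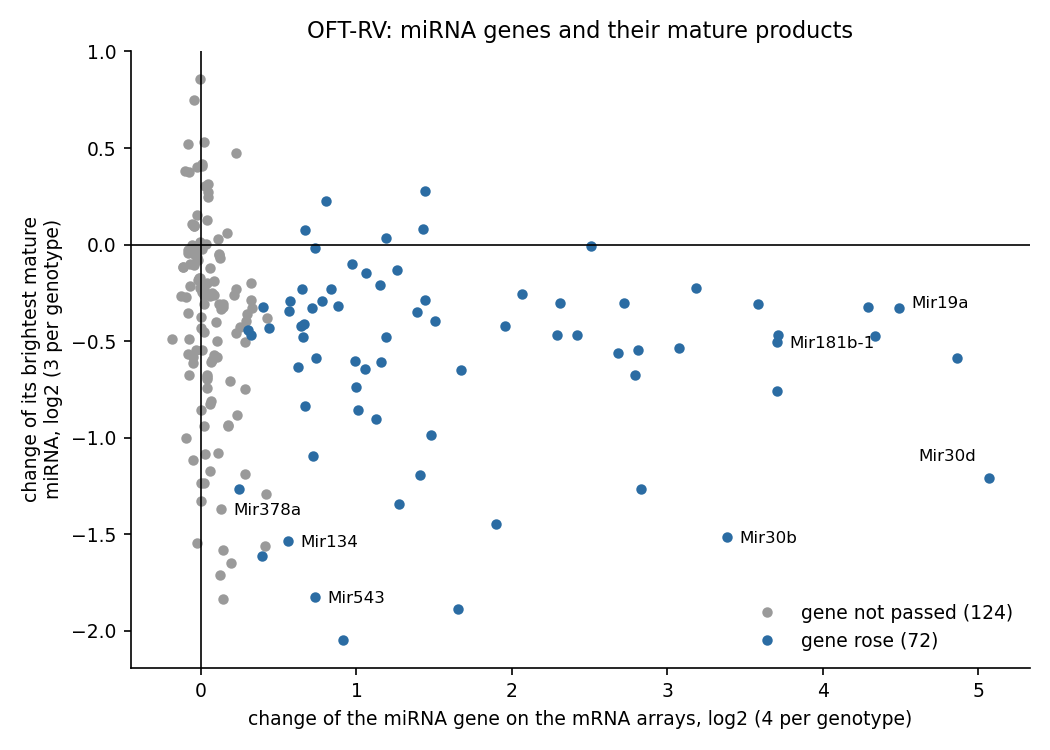
Change of the brightest mature product on the miRNA arrays against change of the miRNA gene on the mRNA arrays, both in log2, for 196 miRNA genes. The 72 genes that rose on the mRNA arrays lie to the right, 67 of them with a mature change below 0, and 124 genes did not pass the test.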

How the data were processed

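The deposited array values are on a log2 scale, after RMA in the package oligo per the submitters' processing notes (versions not given in the sources used here). Distributions of the arrays matched within a tissue and differed between tissues. The authors' deposited comparison tables give each feature's log2 change, mean and p-value, raw and adjusted. They served for names, for matching probe sets of the mRNA arrays to genes (mean and change within 1e-06), and for the 2 adjusted p-values credited to them. A further 4 tables with 30 value columns were not used, since their column names match no sample label.

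Groups were taken from the labels. Mutant was compared with wild-type in limma 3.58.1 (lmFit and eBayes, R 4.3.3), two-sided, with genotype as the only term and Benjamini-Hochberg adjustment over all 1908 mature miRNAs, all 1255 precursors or all 20842 genes. The threshold was 0.05. The difference between tissues was the contrast of both changes in a fit of 4 groups over 14 arrays. SE is limma's moderated standard error, and the small number of arrays limits precision. Groups do not overlap where every mutant array lies beyond every wild-type array. The scripts were tested on simulated data. RefSeq (GRCm38.p6) sequences were matched by name for 1603 of 1908 miRNAs, of which 1590 also matched in position. Mature miRNAs were tied to miRNA genes through the RefSeq entry of the same name. For 32 detected miRNAs without such an entry, the name of the gene alone was used.

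The miRNAs, lists and tests were chosen with earlier results of these data known. Named miRNAs are the 10 brightest, those past the test, up to 4 detected members per list with the smallest p, the 5 changes nearest 0 among the brightest detected miRNAs, and those beside the detection limit. Any other miRNA was added with its values known, as the text marks, and so were miR-30a-5p, miR-30c-5p, miR-30e-5p, miR-378a-5p, miR-499-5p, miR-451a and miR-124-3p, added to complete their families or lists. The same holds for miR-20b-5p, miR-93-5p, miR-106a-5p and miR-106b-5p, given to complete the group that shares a seed. Alternatives left out each array, added a replicate block, an intensity trend, array weights, other scalings, other detection limits, filters and sets of probe sets. The adjustment over mature and precursor probe sets together was added after seeing the data.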

Additional observations from a re-analysis of the deposited data

Results flagged for a closer look

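The difference between the change in OFT-RV and the change in aSHF passed limma's test for 3 miRNAs, at -2.24 for miR-378b, -1.73 for miR-543-3p and -1.19 for miR-134-5p. miR-378b was below the background limit in aSHF.

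In groups of 4 mRNA arrays a single array stood off from the other 3 for 7 of 168 groups examined, and chance flags about 1 in 20 groups. In wild-type these were the lowest array of Mir133a-2 (4.44) and of Mir34c (4.25) and the highest of Mir30d (6.14) and of Mir99b (6.44). In mutant they were the lowest array of Mir25 (7.18) and of Mirlet7e (5.94) and the highest of Mir532 (5.85). Groups of 3 miRNA arrays were not examined in this way.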

How the results depend on the processing

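The 7 lower calls became 1 to 9 when an array was left out (for all and for detected miRNAs), 1 with an intensity trend and 4 when all probe sets were fitted together, and the count moved by less than 1.5 times under the other settings run. The fit with the replicate number as a block gave 9 calls, 8 lower and 1 higher (miR-1892), for all and for detected miRNAs. Its other new calls were lower, for miR-1a-3p, miR-30b-5p and miR-300-3p (the last named after its values were seen). In that fit miR-434-3p and miR-744-5p lost their calls. Same-numbered arrays deviated together at 0.248, -0.131 and 0.127, so the numbers were not taken as pairing the samples. Higher calls were 0 whichever array was left out. Precursors gave 0 to 1 higher calls. The 75 miRNA genes that rose became 64 to 70 without an array, 73 with the block and 37 without dim probe sets. The 3 differences between tissues became 1 to 6 lower and 0 to 2 higher without an array, 1 lower with a trend, and 2 lower and 1 higher with the block.

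Of 118 named miRNAs, 23 reversed sign in some setting. Without an array the change ranged from -0.018 to 0.12 for miR-103-2-5p, -0.083 to 0.17 for miR-10a-5p, -0.081 to 0.035 for miR-10b-5p, -0.19 to 0.013 for miR-127-3p, -0.072 to 0.024 for miR-128-3p, -0.093 to 0.030 for miR-141-5p, -0.63 to 0.019 for miR-143-3p, -0.46 to 0.12 for miR-17-5p, -0.11 to 0.047 for miR-181b-1-3p, -0.20 to 0.050 for miR-199a-5p, -0.88 to 0.19 for miR-200c-3p, -0.78 to 0.034 for miR-20a-5p, -0.93 to 0.0078 for miR-214-3p, -0.12 to 0.47 for miR-302a-3p, -0.017 to 0.23 for miR-302a-5p, -0.043 to 1.0 for miR-302d-3p, -0.24 to 0.13 for miR-34b-3p, -0.12 to 0.17 for miR-486-3p, -0.019 to 0.26 for miR-5110, -0.021 to 0.032 for miR-709, -0.24 to 0.18 for miR-7116-5p and -0.20 to 0.045 for miR-7a-2-3p. With arrays set equal on small RNAs, the change was -0.027 for miR-103-2-5p, -0.044 for miR-10a-5p, -0.00061 for miR-29a-3p, -0.050 for miR-486-3p and -0.070 for miR-709, and on background probe sets it was -0.0017 for miR-486-3p and -0.021 for miR-709. The cause of these moves was not tested.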

Other observations

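The remaining families had few members above the detection limit and none past limma's test. The miRNAs of the imprinted Igf2 and H19 genes were all lower in mutant (4 of 4, median -0.38). miR-675-3p, processed from H19, went from 2.08 ± 0.60 to 1.47 ± 0.32 and miR-483-5p, within Igf2, from 2.01 ± 0.51 to 1.45 ± 0.23 (SD, n = 3), and the groups of both overlapped. miR-103 and miR-107, within pantothenate kinase genes, had 3 of 4 detected members lower (median -0.29, or -0.11 without the third mutant array). The p53-responsive miR-34 and miR-449 family had 4 of 4 lower (median -0.16). miR-26a-5p was the only detected member of its family (-0.29, or -0.054 without that array), and miR-29a-3p of its own (0.075).

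Other members lay at the limit. miR-10a-5p and miR-10b-5p of the Hox clusters had changes of 0.03 and -0.01, and miR-221-3p and miR-222-3p of -0.064 and -0.21 (-0.069 and -0.087 without the third mutant array). Of the miR-218 family, which lies in the Slit genes, 0 of 3 members were detected. On the X chromosome, a cluster between 7237695 and 7248477 (minus strand) that holds miR-532, miR-501 and miR-188 had 6 of 7 detected members lower, with a median of -0.35.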
